A study of Equus caballus with 15 samples.

Results

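The genes described here carry the regulators that macrophages add to blood clotting and to the removal of clots. They were chosen by gene symbol, with earlier results of these data known. Counts of members set beside all genes therefore only describe these members. Of the 9 named genes, 8 (F3, TFPI, THBD, PROCR, PLAU, PLAUR, PLAT and ANXA2) were among the 16932 genes of the deposited values. SERPINB2, which encodes an inhibitor of plasminogen activators, was not listed under that symbol and was not analysed here. All 8 listed genes had a mean of at least 1 CPM (reads of a gene scaled to a common library total) over the libraries, and so entered the tests with 11628 genes in all.

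Equine macrophages were grown from blood monocytes of 2 geldings of 3 and 5 years of age over 5 days with human M-CSF at 30 ng/ml. The libraries fell into 5 conditions of 3. Untreated cultures were left without IL-1ß, and the cultures of the other 4 conditions were all given IL-1ß at 10 ng/ml. The IL-1ß condition received nothing else. In the other conditions an orthobiologic therapy (OT) was added with IL-1ß and made up 25% of the medium. MSC-CM was medium conditioned by mesenchymal stromal cells from bone marrow. PRP lysate was made by freezing platelet rich plasma. ACS, autologous conditioned serum, was drawn off whole blood after incubation in a collection device. All OTs were prepared from the same 3 donor horses, aged 2, 5 and 5 years. These horses did not donate the macrophages, so every OT was foreign to the cells it was added to. Libraries of different OTs may thus be matched by donor, but the MSC-CM and PRP lysate labels do not name the donor. Treatment lasted 24 h, after which the sources differ on whether the cells were harvested at once or after further culture. The libraries of an OT were described as biological replicates of the product, and those of IL-1ß and untreated macrophages as technical replicates. For the latter groups p-values therefore measure a spread that may be technical. All 5 conditions were fitted together and share an estimate of the spread. That technical spread thus also enters the p-values of the comparisons between OTs. The labels do not say which macrophage donor gave which library.

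Clotting begins when tissue factor, the product of F3, meets factor VII at a cell surface and starts the cascade that makes thrombin. TFPI blocks that first complex, while thrombomodulin (THBD) captures thrombin and, with the endothelial protein C receptor (PROCR), turns it towards the activation of the anticoagulant protein C. Clots are removed by plasmin, which urokinase (PLAU) and tissue plasminogen activator (PLAT) cut from plasminogen. PLAUR holds urokinase at the cell surface, and ANXA2 binds plasminogen and PLAT there. Monocytes and macrophages are known for inducible tissue factor, urokinase and the urokinase receptor.

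Between 28410733 and 47894066 reads were counted per library, so that the members with the fewest reads, PLAT and PROCR, still had at least 48 and 58 reads in each library. Of the macrophage marker genes, 11 of 12 were listed and all 11 had a mean of at least 1 CPM, although CD14, a defining monocyte marker, averaged 2.49 CPM. The summed macrophage markers ranged from 12624 to 17391 CPM over the untreated, IL-1ß and MSC-CM libraries, from 7206 to 11826 CPM with PRP lysate and from 10497 to 13343 CPM with ACS. Most of the sum was CTSB and MRC1, and the markers differed among themselves. CD68 averaged 1630 CPM with IL-1ß, 1660 with PRP lysate and 1631 with ACS, whereas CD163 averaged 563, 11.4 and 64.6 CPM. A pair of libraries stood apart from the others of their group. IL-1ß library 3 scored 103 on the first principal component, which held 55.4% of the variance of the tested genes, and PRP lysate library 1 scored 51.7, with MSC-CM library 1 next at 20.7 and all others between -26.6 and 8.15. The 67 ribosomal protein genes took 6.68% of CPM in IL-1ß library 3 and 5.12% in PRP lysate library 1, with 4.76% in MSC-CM library 1 and 2.74% to 3.96% elsewhere. Values without 1 or both of these libraries accompany several results that they moved. The cultures were sequenced in bulk, so fewer cells of a type and less RNA per cell cannot be told apart. All levels of members are of RNA, and protein names stand for the transcripts of their genes. The proteins of the members and their activity were not measured.

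Tissue factor, which starts coagulation, was low in IL-1ß and MSC-CM macrophages and high in ACS macrophages. F3 (ENSECAG00000023416, EquCab3.0 chr5:67464152-67475036) measured 53.3, 48.0 and 83.1 CPM in the untreated libraries (61.4 ± 18.9, SD, n = 3). It measured 30.9, 22.4 and 23.7 CPM with IL-1ß (25.7 ± 4.60) and 20.7, 25.3 and 28.0 CPM with MSC-CM (24.6 ± 3.71). With PRP lysate it measured 53.0, 149 and 124 CPM (109 ± 49.9) and with ACS 138, 113 and 90.5 CPM (114 ± 23.9). Every untreated, PRP lysate and ACS library thus lay above every IL-1ß and MSC-CM library. PRP lysate library 1 was the lowest of its group and lay within the untreated range. In the order of group means, ACS, PRP lysate, untreated, IL-1ß and MSC-CM, only the step from untreated to IL-1ß separated neighbouring groups without overlap.

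TFPI, the inhibitor of the tissue factor complex, was also highest with the blood-derived OTs, with little spread between libraries. TFPI (ENSECAG00000021849, chr18:64339484-64417718) measured 6.56, 6.50 and 7.30 CPM in untreated macrophages (6.79 ± 0.446), 6.14, 6.33 and 7.16 CPM with IL-1ß (6.54 ± 0.540) and 4.26, 4.11 and 5.27 CPM with MSC-CM (4.55 ± 0.628). It measured 13.8, 11.8 and 16.0 CPM with PRP lysate (13.9 ± 2.10) and 9.98, 11.4 and 11.9 CPM with ACS (11.1 ± 1.01). All 6 PRP lysate and ACS libraries lay above all 9 others, and the MSC-CM libraries lay below all others. PRP lysate and ACS overlapped, as did untreated and IL-1ß. The ratio of the group mean to the untreated mean was 2.04 for PRP lysate, 1.64 for ACS and 0.669 for MSC-CM.

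Thrombomodulin ranked the groups in the same order of means as TFPI, with a wider spread. THBD (ENSECAG00000005241, chr22:2499878-2501603) measured 69.3, 162 and 144 CPM in untreated macrophages (125 ± 49.3), 122, 109 and 29.4 CPM with IL-1ß (86.9 ± 50.2) and 54.8, 73.9 and 65.7 CPM with MSC-CM (64.8 ± 9.56). It measured 102, 314 and 299 CPM with PRP lysate (239 ± 118) and 195, 186 and 186 CPM with ACS (189 ± 5.18). The ACS libraries were tightly grouped and lay above every untreated, IL-1ß and MSC-CM library. The lowest values of the IL-1ß and PRP lysate groups were those of the libraries that stood apart, IL-1ß 3 and PRP lysate 1. Over the 15 libraries THBD had a Pearson correlation of -0.72 with the first principal component and of -0.81 with the share of ribosomal protein genes, which share the depth and scaling of each library. The values were -0.44 and -0.63 for F3 and 0.52 and 0.43 for PROCR, and between -0.28 and 0.25 for the other 5 members. The part of library quality in these values was not tested.

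PROCR, the partner of thrombomodulin in protein C activation, stayed near 2 CPM in every condition. PROCR (ENSECAG00000024428, chr22:26861221-26865964) had group means of 1.93 ± 0.407 CPM in untreated macrophages, 2.79 ± 1.90 with IL-1ß, 1.99 ± 0.482 with MSC-CM, 2.32 ± 0.357 in PRP lysate and 2.44 ± 0.924 in ACS macrophages. The groups overlapped throughout, and the highest value, 4.98 CPM, was that of IL-1ß library 3. The other IL-1ß libraries measured 1.75 and 1.64 CPM.

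**Figure D1:**
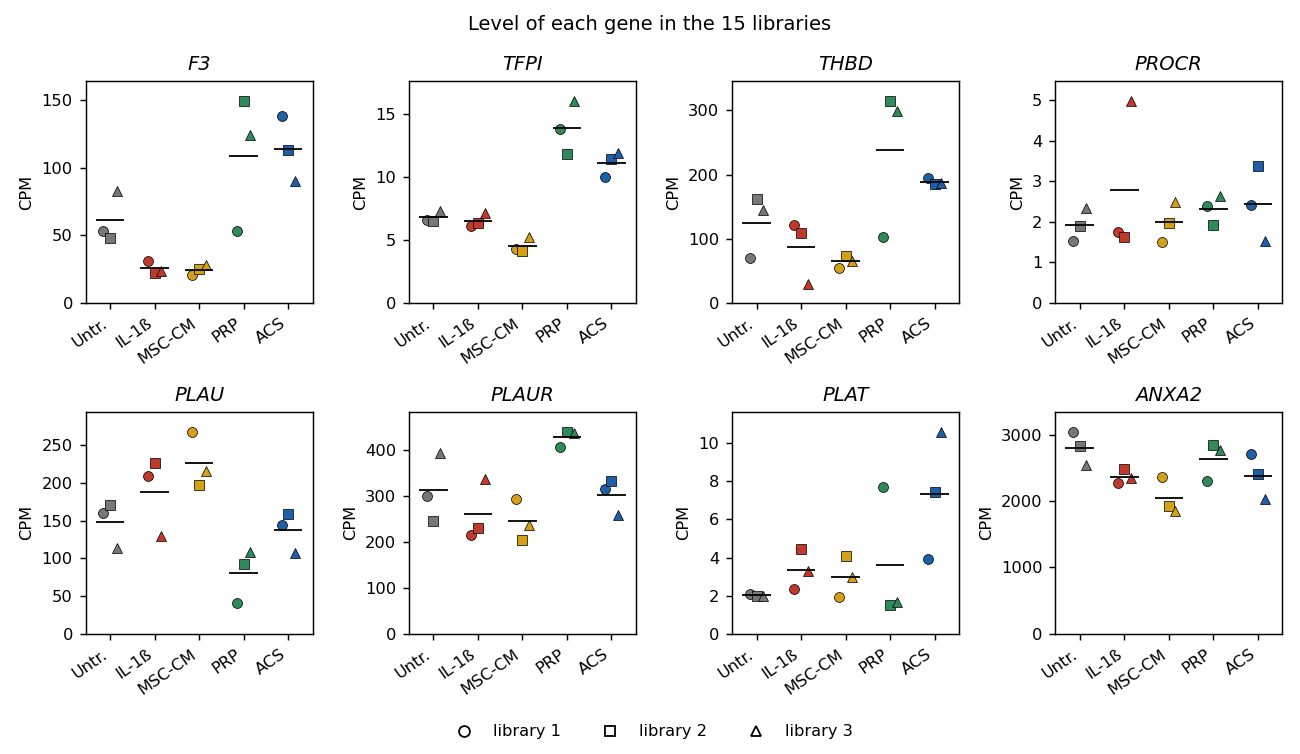
Level of the 8 listed genes in CPM (y axis, linear, from 0) in each of the 15 libraries, by condition (x axis: untreated, IL-1ß, MSC-CM, PRP lysate and ACS). Points are libraries, with the symbol giving the library number, and bars are group means; F3 and TFPI are high in ACS and PRP lysate and low in MSC-CM, PLAU is lowest in PRP lysate, at 40.3 to 109 CPM, and PROCR and ANXA2 differ little between conditions.

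Urokinase, the main plasminogen activator of macrophages, was lowest with PRP lysate and highest with MSC-CM. PLAU (ENSECAG00000007351, chr1:61999783-62004242) measured 160, 171 and 113 CPM in untreated macrophages (148 ± 30.6), 209, 226 and 129 CPM with IL-1ß (188 ± 51.5) and 267, 198 and 215 CPM with MSC-CM (227 ± 36.2). It measured 40.3, 91.9 and 109 CPM with PRP lysate (80.3 ± 35.6) and 145, 159 and 107 CPM with ACS (137 ± 26.9). Every PRP lysate library lay below every untreated, IL-1ß and MSC-CM library, and every MSC-CM library lay above every untreated library. Neighbouring groups in the order MSC-CM, IL-1ß, untreated, ACS and PRP lysate overlapped.

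The urokinase receptor was highest where urokinase was lowest. PLAUR (ENSECAG00000022127, chr10:14797661-14810917) measured 407, 439 and 437 CPM with PRP lysate (427 ± 17.9), above all 12 other libraries. It measured 299, 246 and 393 CPM in untreated macrophages (313 ± 74.3), 216, 231 and 336 CPM with IL-1ß (261 ± 65.7), 292, 205 and 237 CPM with MSC-CM (245 ± 44.2) and 315, 333 and 259 CPM with ACS (302 ± 38.6). Those 4 groups overlapped from neighbour to neighbour.

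Tissue plasminogen activator was scarce, and single libraries carried much of its spread. PLAT (ENSECAG00000007571, chr27:3264269-3284482) measured 2.09, 1.96 and 1.98 CPM in untreated macrophages (2.01 ± 0.0708), 2.36, 4.46 and 3.28 CPM with IL-1ß (3.37 ± 1.05) and 1.95, 4.09 and 2.97 CPM with MSC-CM (3.00 ± 1.07). With PRP lysate it measured 7.68, 1.51 and 1.69 CPM (3.63 ± 3.52), so that library 1 carried the group mean, and with ACS 3.93, 7.45 and 10.6 CPM (7.32 ± 3.33). All IL-1ß and all ACS libraries lay above all untreated libraries. PLAT overlaps AP3M2 (chr27:3266488-3310156) in the deposited positions. Whether the counting used the strand of the reads is not given in the sources used here, so its values are uncertain. The group means of AP3M2 lay between 3.16 and 4.94 CPM.

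ANXA2, the plasminogen-binding annexin, was abundant and nearly level. ANXA2 (ENSECAG00000012670, chr1:132690640-132732649) had group means of 2800 ± 250.0 CPM in untreated macrophages, 2362 ± 107 with IL-1ß, 2042 ± 276 with MSC-CM, 2636 ± 289 in PRP lysate and 2381 ± 338 in ACS macrophages. The IL-1ß and MSC-CM libraries, at 1846 to 2477 CPM, lay below the untreated ones, at 2539 to 3038 CPM.

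Differences between conditions were tested with limma on log2(CPM + 1), which understates the change of genes with few CPM, and p-values were adjusted over all 11628 genes by Benjamini-Hochberg. A gene was called when its adjusted p was at most 0.05 and its fold change at least 2. Log2 fold changes are given with their standard error. Comparisons that name the same group share its libraries and are not independent.

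The comparison of IL-1ß with untreated macrophages asked what the cytokine did by itself. F3 was lower in all 3 IL-1ß libraries, by a log2 fold change of -1.20 ± 0.332, but did not pass the adjustment (limma adjusted p = 0.163). PLAT was higher in all 3 by 0.51 ± 0.435 (adjusted p = 0.607) and ANXA2 lower in all 3 by -0.24 ± 0.138 (limma adjusted p = 0.470). THBD, PROCR, PLAU, PLAUR and TFPI overlapped between the groups, and the THBD difference of -0.67 was -0.03 without IL-1ß library 3. Limma thus called 0 of the 8 genes, and 1 of them, F3, had an unadjusted p under 0.05, where 13% of all genes had one. Of all genes tested, 0.292% were called and 16.2% had groups that did not overlap, against 3 of the 8. DESeq2 on the recovered reads called F3 (log2 fold change -1.21, DESeq2 adjusted p = 0.0210), and so did limma without IL-1ß library 3 and PRP lysate library 1 (-1.15, adjusted p = 0.0260).

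The comparisons of each OT with IL-1ß asked what the product changed in activated macrophages. With MSC-CM, no member passed the test. TFPI was lower in all 3 MSC-CM libraries, by -0.45 ± 0.160 (limma adjusted p = 0.705), and the other 7 genes overlapped. F3 differed by -0.05, with a 95% interval of the difference from -0.77 to 0.66 on the log2 scale. THBD differed by -0.19, with an interval from -1.31 to 0.94, and by -0.83 without IL-1ß library 3. Limma called 0 of the 8 genes, with an unadjusted p under 0.05 for 1 of them, where 5.60% of all genes had one. It called 0% of all genes tested, DESeq2 called 2 genes of the whole table and 0 members, and 8.79% of all genes had groups that did not overlap. All genes together had a median difference of 0.16 on the CPM scale and 0.0049 with RLE size factors, under which TFPI differed by -0.60.

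With PRP lysate, the tissue factor transcript rose and the urokinase transcript fell. F3 rose by a log2 fold change of 1.93 ± 0.332 over IL-1ß (limma adjusted p = 0.00404), higher in 3 of 3 libraries. PLAU fell in 3 of 3 libraries, with a log2 fold change of -1.30 ± 0.330 (limma adjusted p = 0.0398). TFPI passed the adjustment at 0.97 ± 0.160 (limma adjusted p = 0.00304) and lay just under the 2-fold limit on log2(CPM + 1). It was called in 4 of 16 other settings, among them a pseudocount of 0.1 CPM (1.07, limma adjusted p = 0.00377). The adjustment was passed in all other settings but the fit of the 2 groups alone (0.243). PLAUR was higher in all 3 libraries by 0.74 ± 0.203 and did not pass the adjustment (limma adjusted p = 0.0576). THBD was 1.52 ± 0.520 higher with overlapping groups (limma adjusted p = 0.129; DESeq2 called it at 1.41, adjusted p = 0.0220). It was 0.88 higher without IL-1ß library 3 (limma adjusted p = 0.294) and 2.05 higher, and called, without PRP lysate library 1 (0.0296). PROCR, PLAT and ANXA2 also overlapped. Limma called 2 of the 8 genes, where 3.09% of all genes were called, and 4 of the 8 did not overlap, where 15% of all genes did not.

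The F3 call with PRP lysate held in 15 of 16 other settings and was lost in a fit of these 2 groups alone (limma adjusted p = 0.1404). The PLAU call held in 8 of 16. Without PRP lysate library 1 the change was -0.87, under the 2-fold limit (limma adjusted p = 0.0723). It stayed past 2-fold but did not pass the adjustment without IL-1ß library 1 (-1.20, limma adjusted p = 0.0816) or 2 (-1.14, 0.135) and without PRP lysate library 2 (-1.45, 0.0584). The same held, at the full -1.30, with no filter on low values (limma adjusted p = 0.0610), in the fit of the 2 groups alone (0.408) and in both fits of the 12 libraries other than ACS. Without both libraries that stood apart, PLAU changed by -1.11 (limma adjusted p = 0.00570), TFPI by 1.03 (0.00370) and THBD by 1.40 (0.00797), so that 4 of the 8 genes were called, where 4.41% of all genes were. F3 then changed by 2.33 (limma adjusted p = 0.000187), and PLAUR, at 0.97, passed the adjustment (0.00888) but not the 2-fold limit.

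With ACS, tissue factor rose as it did with PRP lysate, while urokinase overlapped with the IL-1ß level. F3 rose by 2.10 ± 0.332 over IL-1ß (limma adjusted p = 0.00514), higher in 3 of 3 libraries and called in 14 of 14 other settings. TFPI was higher in all 3 libraries by 0.68 ± 0.160, under the 2-fold limit (limma adjusted p = 0.0349). It passed the adjustment in 5 of 14 other settings, with adjusted p-values of 0.0222 to 0.254 over all 14. THBD was higher in all 3 by 1.35 ± 0.520 and did not pass (limma adjusted p = 0.181). Without IL-1ß library 3 and PRP lysate library 1, the THBD difference was 0.71 (adjusted p = 0.147). PLAU differed by -0.43 ± 0.330 (limma adjusted p = 0.393) and PLAT by 0.87 ± 0.435 (0.260). Limma called 1 of the 8 genes, where 2.21% of all genes were called, and 3 of the 8 did not overlap, where 26.2% of all genes did not.

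The comparisons of PRP lysate and of ACS with MSC-CM asked how the products differ. Their fold changes do not use the IL-1ß and untreated libraries. The spread of those libraries, which may be technical, does enter the shared standard errors. F3 was 1.98 ± 0.332 higher with PRP lysate (limma adjusted p = 0.00404) and 2.15 ± 0.332 higher with ACS (0.00515) than with MSC-CM. TFPI was 1.42 ± 0.160 higher with PRP lysate (limma adjusted p = 0.000332) and 1.13 ± 0.160 higher with ACS (0.00332). These 4 differences were seen in 3 of 3 libraries. The TFPI calls held in all 16 and 13 other settings, the F3 call for ACS in all 13, and the F3 call for PRP lysate in 15 of 16, being lost in the fit of the 2 groups alone (limma adjusted p = 0.0559).

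Among the plasminogen genes, PLAU was lower with PRP lysate than with MSC-CM in 3 of 3 libraries, by -1.59 ± 0.330 (limma adjusted p = 0.0144). That call was lost without MSC-CM library 1 (limma adjusted p = 0.0680) or 3 (0.0596) and in the fit of the 2 groups alone (0.0847), and in 1 more of the 16 other settings. PLAUR was higher in 3 of 3 by 0.82 ± 0.203, under the 2-fold limit (limma adjusted p = 0.0393). It passed the adjustment in 4 of 16 other settings, with adjusted p-values of 0.00757 to 0.163 over all 16. With ACS, PLAU was lower than with MSC-CM in 3 of 3 libraries by -0.73 ± 0.330, which did not pass (limma adjusted p = 0.356). PLAT differed by 1.01 ± 0.435 with ACS (limma adjusted p = 0.332).

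Compared with MSC-CM, THBD was higher in every PRP lysate library by 1.71 ± 0.520 (limma adjusted p = 0.0941) and in every ACS library by 1.54 ± 0.520 (0.177). Without PRP lysate library 1 the former difference was 2.24 (limma adjusted p = 0.0214). Other settings also called THBD. For PRP lysate these were RLE size factors (1.79, limma adjusted p = 0.0446), edgeR (1.92, adjusted p = 0.0327), DESeq2 (1.95, adjusted p = 0.000374) and the fit without both libraries that stood apart (limma adjusted p = 0.000142). For ACS they were DESeq2 (1.60, adjusted p = 0.0103) and the fit of the 2 groups alone (limma adjusted p = 0.000401). Of the 8 genes, limma called 3 with PRP lysate, where 2.61% of all genes were called, and 2 with ACS, where 1.23% were. The groups did not overlap for 5 genes with PRP lysate and 4 with ACS, where 19.4% and 35.1% of all genes did not.

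Between PRP lysate and ACS, limma called 0 of the 8 genes, as did edgeR and DESeq2. PLAUR was higher in all 3 PRP lysate libraries, by 0.51 ± 0.203 (limma adjusted p = 0.841). PLAU was -0.86 ± 0.330 lower (limma adjusted p = 0.795) and PLAT -1.01 ± 0.435 lower (0.842), both with overlapping groups, and the PLAU difference was -0.43 without PRP lysate library 1. F3 differed by -0.17, with a 95% interval from -0.89 to 0.54, and TFPI by 0.29, with an interval from -0.06 to 0.64. The unadjusted p was under 0.05 for 3 of the 8 genes, where it was for 5.19% of all genes. Of all genes, 0.0946% were called and 15.6% did not overlap, against 1 of the 8. Without PRP lysate library 1 and IL-1ß library 3, PLAT was lower with PRP lysate by -1.60 and called (limma adjusted p = 0.0492), and F3 differed by 0.27.

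**Figure D2:**
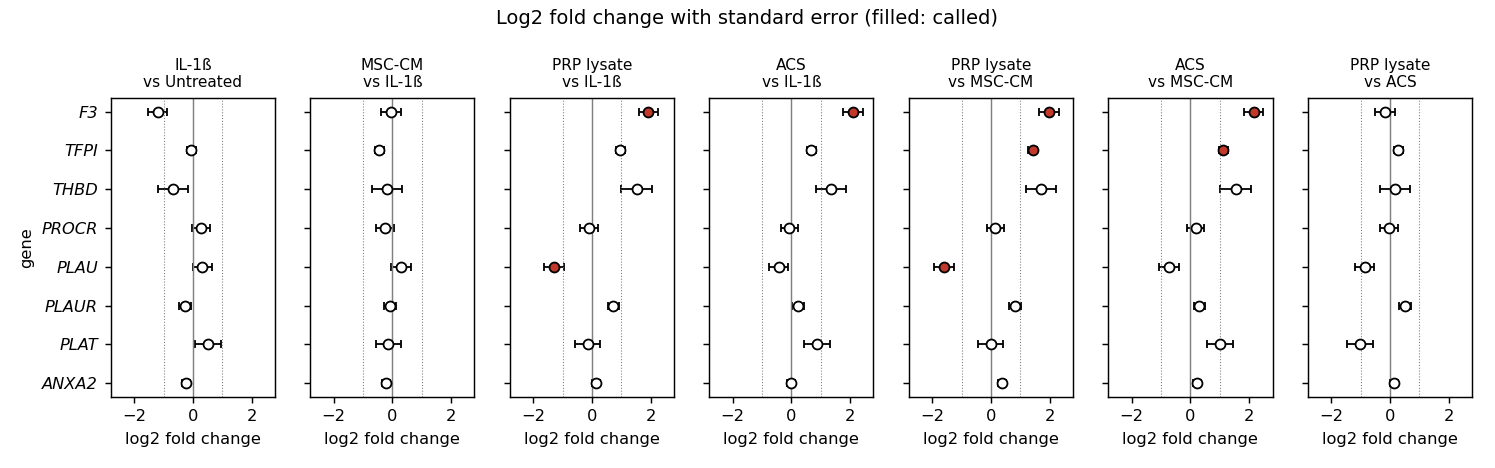
Log2 fold change of the 8 genes (x axis, on log2(CPM + 1), y axis: gene) in the 7 comparisons, with the standard error as bars. Filled points are genes called by limma and dotted lines mark a 2-fold change. F3 is called in the 4 comparisons of PRP lysate or ACS with IL-1ß or MSC-CM, at 1.93 to 2.15. TFPI is called for PRP lysate and ACS over MSC-CM, at 1.42 and 1.13, and PLAU for PRP lysate over IL-1ß and MSC-CM, at -1.30 and -1.59.

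Across the members, the median log2 fold change was 0.45 with PRP lysate and 0.46 with ACS over IL-1ß, where all genes tested had medians of 0.11 and 0.13. It was 0.59 and 0.66 over MSC-CM, where all genes had -0.09 and -0.04. With MSC-CM over IL-1ß it was -0.16, where all genes had 0.16. IL-1ß over untreated gave -0.14 against -0.07, and PRP lysate over ACS 0.07 against -0.04.

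Members differed in how closely their levels ran together over the libraries. Of the correlations of log2(CPM + 1) over the 15 libraries, F3 had 0.84 with THBD and 0.80 with TFPI, and TFPI had 0.68 with THBD. PLAUR had 0.72 with TFPI, 0.64 with F3 and 0.37 with THBD. PROCR had 0.08 with F3, 0.26 with TFPI and -0.23 with THBD. PLAU had -0.77 with TFPI, -0.71 with PLAUR and -0.52 with F3. After the group means were removed, F3 had 0.58 with THBD, -0.07 with TFPI and 0.49 with PLAU, while TFPI had -0.22 with THBD and PLAU -0.15 with PLAUR. These points share their depth and scaling within a library and their treatment within a group, and are given as a description.

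Ratios of the CPM of 2 members in the same library can be set against other libraries, since the gene lengths are the same in each. They were chosen after their values were seen and were not tested. Ratios of transcripts do not give the balance of the proteins. The ratio of F3 to THBD, also computed, overlapped between most groups, at 0.296 to 0.768 in untreated, 0.205 to 0.806 in IL-1ß, 0.342 to 0.426 in MSC-CM, 0.415 to 0.518 in PRP lysate and 0.485 to 0.709 in ACS macrophages. The urokinase transcript was lowest relative to that of its receptor with PRP lysate. The ratio of PLAU to PLAUR was 0.0991, 0.209 and 0.249 there, below all 12 other libraries. Its group means were 0.506 ± 0.204 in untreated macrophages, 0.778 ± 0.340 with IL-1ß, where library 3 measured 0.385, 0.929 ± 0.0314 with MSC-CM and 0.450 ± 0.0333 with ACS.

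The tissue factor transcript was lower relative to that of its inhibitor in IL-1ß and MSC-CM than in untreated and ACS macrophages. The ratio of F3 to TFPI was 5.03, 3.54 and 3.31 with IL-1ß and 4.86, 6.14 and 5.32 with MSC-CM. It was 8.12, 7.38 and 11.4 in untreated libraries and 13.9, 9.91 and 7.58 with ACS, all above the former 6. With PRP lysate it was 3.84, 12.6 and 7.75, so that library 1 lay with the IL-1ß libraries and the others with the untreated and ACS libraries.

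**Figure D3:**
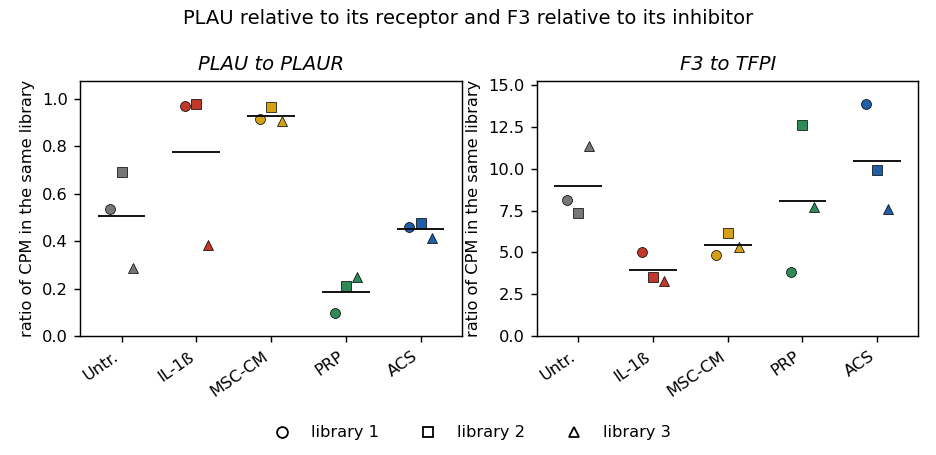
Ratio of the CPM of PLAU to that of PLAUR (left) and of F3 to that of TFPI (right) in the same library (y axis, linear, from 0), by condition (x axis). Points are the 15 libraries and bars are group means; the PLAU to PLAUR ratio is lowest in PRP lysate, at 0.0991 to 0.249, and the F3 to TFPI ratio lies at 3.31 to 6.14 in IL-1ß and MSC-CM libraries and at 7.38 to 13.9 in untreated and ACS libraries.

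The rest of the pathway was written as a list of 44 other genes of coagulation and fibrinolysis, of which 35 were listed and 18 tested. The tested genes were the clotting factor F12, the fibrinogen-like FGL2, the thrombin receptor F2R, the related F2RL1 and the inhibitor TFPI2. Also tested were KLKB1 and SERPING1 of the contact system and the plasminogen-binding S100A10, PLGRKT and ENO1. The uptake receptors LRP1 and MRC2 were tested with LRPAP1, a chaperone of LRP1. GGCX, VKORC1, VKORC1L1, LMAN1 and MCFD2, which serve the vitamin K cycle and factor secretion, completed the tested genes. The other 17 listed genes had a mean under 1 CPM, among them F2, F5, F7, F8, F10, F13A1, VWF and PROS1. F13A1, the transglutaminase subunit that macrophages of other species are known to make, did not exceed 0.222 CPM in any library.

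Of these 18 genes, limma called 0 with IL-1ß over untreated, 0 with MSC-CM over IL-1ß, 0 with PRP lysate over IL-1ß and 0 between PRP lysate and ACS. The numbers with an unadjusted p under 0.05 in those comparisons were 4, 0, 6 and 3, where 13%, 5.60%, 17.5% and 5.19% of all genes had one, and DESeq2 called 0 in each of them. With ACS over IL-1ß, limma called 2 of the 18 genes, both higher, where 2.21% of all genes were called. TFPI2, a Kunitz-type protease inhibitor related to TFPI, rose by 1.66 ± 0.296 (limma adjusted p = 0.00913), from 8.71 ± 2.97 to 30.4 ± 12.2 CPM. KLKB1, which encodes plasma prekallikrein, rose by 1.52 ± 0.365 (limma adjusted p = 0.0376), from 5.86 ± 2.83 to 18.0 ± 6.07 CPM. Without IL-1ß library 3, the lowest of its group for both genes, TFPI2 rose by 1.40 (limma adjusted p = 0.0225), while KLKB1 was 1.105 higher and did not pass (0.1002). TFPI2 was called in 11 and KLKB1 in 8 of 14 other settings. Without ACS library 2 limma called 0 of the 18, where it called 103 of all 11628 genes.

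Over MSC-CM, TFPI2 rose with ACS by 1.62 ± 0.296 (limma adjusted p = 0.0132), the only 1 of the 18 called, where 1.23% of all genes were, and this call was lost without MSC-CM library 1 or 3 or ACS library 2 or 3. MRC2, an uptake receptor for collagen that associates with PLAUR, fell with PRP lysate against MSC-CM by -1.10 ± 0.277 (limma adjusted p = 0.0424), from 23.3 ± 1.65 to 10.97 ± 4.53 CPM, again 1 of the 18, where 2.61% of all genes were called. That call was lost on leaving out any 1 of 5 of the 6 libraries, all but PRP lysate library 2, and without PRP lysate library 1 the change was -0.80. The median log2 fold change of the 18 genes was -0.28 with PRP lysate and 0.03 with ACS over IL-1ß, where all genes had 0.11 and 0.13. Over MSC-CM it was -0.32 and -0.19, where all genes had -0.09 and -0.04.

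**Figure D4:**
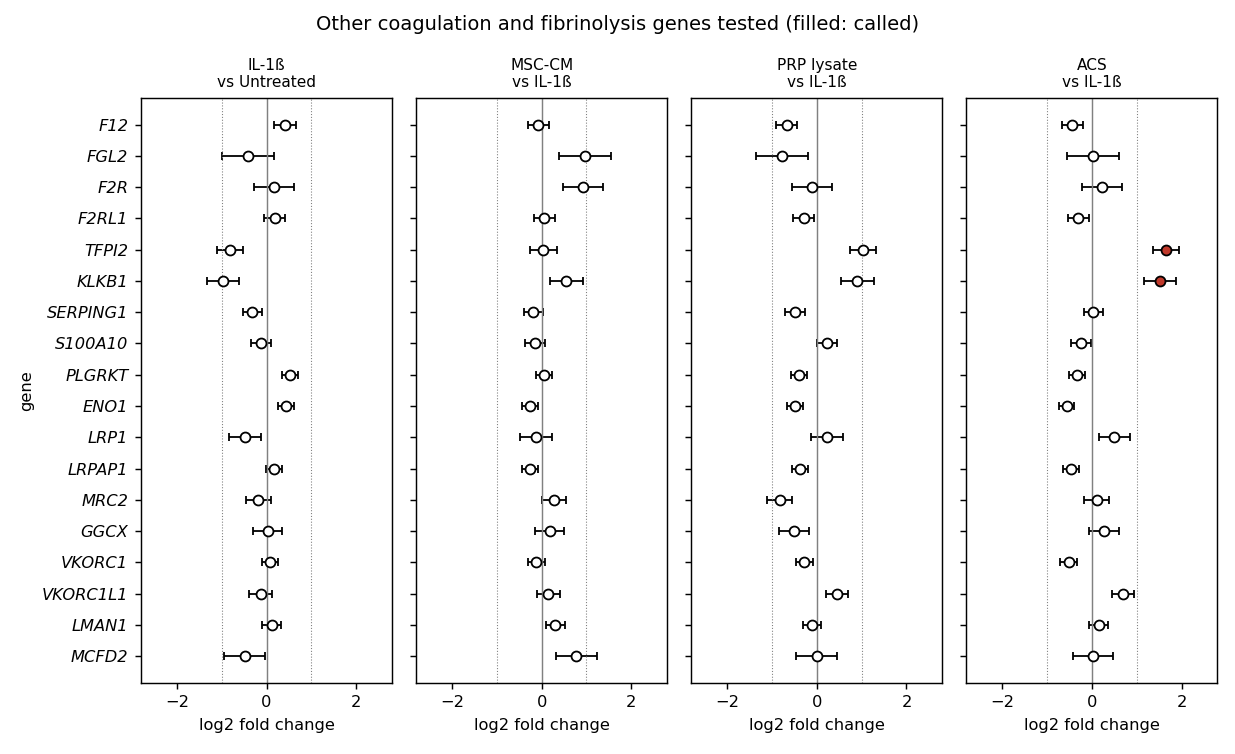
Log2 fold change of the 18 other tested genes of coagulation and fibrinolysis (x axis, on log2(CPM + 1), y axis: gene) for IL-1ß over untreated and for MSC-CM, PRP lysate and ACS over IL-1ß, with the standard error as bars. Filled points are genes called by limma and dotted lines mark a 2-fold change; TFPI2 and KLKB1 with ACS are filled, at 1.66 and 1.52, and no other gene is.

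Markers of other cell types that could be present varied between the groups. Endothelial cells also make THBD, TFPI, PROCR and PLAT. Of 7 endothelial markers, all were listed and 5 had a mean of at least 1 CPM, while the defining markers VWF and CLDN5 averaged 0.0281 and 0.233 CPM. The sum of all 7 was 66.8 to 106 CPM with PRP lysate and 122 to 157 CPM with ACS, against 188 to 520 CPM in the other groups, and most of it was PECAM1. The other markers were ordered differently from PECAM1 and from each other. TEK averaged 21.6 CPM in untreated macrophages, 18.4 with PRP lysate and 20.8 with ACS, against 10.9 with IL-1ß and 11.2 with MSC-CM. CDH5 was also highest in untreated macrophages, at 9.53 CPM, and averaged 6.13 with PRP lysate, 2.44 with ACS, 2.04 with IL-1ß and 2.76 with MSC-CM. TIE1 averaged 3.09 and 3.49 CPM with PRP lysate and ACS, against 1.83, 1.87 and 1.49 CPM in the untreated, IL-1ß and MSC-CM groups, and KDR averaged 1.41 to 1.77 CPM in the 5 groups. Fibroblast markers had 6 listed of 7 and 0 with a mean of 1 CPM, with a summed level of at most 3.15 CPM in any library.

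Platelet markers bear on the PRP lysate. Of 7 named, 6 were listed and 3 (PPBP, ITGA2B and TREML1) had a mean of at least 1 CPM. The sum was 14.1 to 42.9 CPM with PRP lysate, 14.3 to 22.1 with ACS, 12.5 to 16.4 with IL-1ß, 8.56 to 10.95 with MSC-CM and 4.77 to 7.79 in untreated macrophages. The platelet genes GP9 and GP1BA averaged 0.0917 and 0.0827 CPM. PPBP, a chemokine gene, averaged 27.2 CPM with PRP lysate and made up most of the sum there.

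Among blood cells, the neutrophil list summed to 485 to 546 CPM with PRP lysate and 530 to 759 CPM with ACS, against 268 to 430 CPM in the other groups. Only CSF3R of its 3 listed genes had a mean of at least 1 CPM, and the granule genes MPO and ELANE averaged 0.780 and 0.109 CPM. Summed over 6 markers, T cell transcripts spanned 557 to 799 CPM without IL-1ß and 772 to 1431 CPM after IL-1ß alone. The same sum was 743 to 1493 CPM with PRP lysate, 670 to 830 CPM with ACS and 1066 to 1130 CPM in MSC-CM macrophages. The highest IL-1ß and PRP lysate sums were those of the libraries that stood apart. The 4 listed B cell markers summed to 11.95 to 47.6 CPM over all libraries. The part of these cells in the members' values was not tested.

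Finally, the genes whose levels were most like those of each member over the 15 libraries were taken as the 3 with the highest Pearson correlation of log2(CPM + 1). For F3 these were JAM2 (0.98), ECE1 (0.97) and VEGFC (0.96). For THBD they were MTSS1 (0.97), MED12L (0.96) and PKIB (0.96), and for TFPI they were ANGPTL4 (0.92), ENSECAG00000001900 (0.91) and EFCAB3 (0.91). For PLAU they included ENSECAG00000029581 (0.93) and KIF1A (0.93), while PLAUR was most like IL17RC (0.91), CD82 (0.90) and MRPL39 (0.89). ANXA2 was most like CD99 (0.90), S100A11 (0.87) and ENSECAG00000023677 (0.86). For PLAT, with few reads, they were LTBP3 (0.81), TFAP2E (0.79) and MSI1 (0.79), and for PROCR they included CD99L2 (0.73) and PCID2 (0.72). These correlations were the highest among 11628 genes tested and describe the libraries only.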

How the data were processed

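Polyadenylated RNA of equine macrophages was sequenced in 15 libraries. Per the study's methods, the work was done in Partek Flow, with quality trimming at Phred 20, adapter removal by cutadapt, STAR 2.7.3 for alignment against EquCab3.0 and HTSeq for counts per Ensembl gene. The strand setting is not given in the sources used here. The authors deposited CPM (counts scaled to a common library total) for 16932 genes. Whole reads were recovered from the steps of the CPM values (100% of 125536 values of up to 1000 reads lay within 0.05 of a whole number).

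The 11628 genes whose mean reached 1 CPM were tested with limma 3.58.1 (R 4.3.3) and an intensity trend on log2(CPM + 1), with all 5 conditions in 1 model and Benjamini-Hochberg adjustment within each comparison. A call needed an adjusted p of 0.05 or less and a change of 2-fold or more. An exact permutation test of 3 against 3 libraries cannot give a p under 0.1 and was not used. Alternatives were a pseudocount of 0.1, no filter, RLE size factors and TMM factors, edgeR 4.0.16 and DESeq2 1.42.0 on recovered reads, a fit of only the 2 groups compared, no limit on the fold change, a replicate block, and leaving out libraries. The limma fit of PRP lysate against IL-1ß was tested on simulated data. The simulation gave all genes the same dispersion and had no outlying libraries or donors. It therefore does not cover those features of the data. Named genes are all members, the other pathway genes that were called, and the 3 genes most like each member, of which some items are not reported here, with 1 gene of the pathway list left out. The members and lists were chosen with earlier results of these data known. Sequences were not used here. Figures were drawn with matplotlib 3.10.9.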

Additional observations from a re-analysis of the deposited data

How the results depend on the processing

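The calls of F3 with ACS (over IL-1ß and over MSC-CM) and of TFPI with PRP lysate and with ACS over MSC-CM were made in every alternative. The number of the 8 members called changed in these comparisons. For IL-1ß against untreated it was 1 instead of 0 with DESeq2 and without both IL-1ß library 3 and PRP lysate library 1. Of all genes, 167 of 14957 and 91 of 11628 were called in those settings instead of 34. For PRP lysate against IL-1ß it was 1 instead of 2 with no filter, 0 with only the 2 groups, 3 with a pseudocount of 0.1, DESeq2 or no fold threshold, 4 without both libraries, and 1 to 3 on leaving out single libraries. Of all genes, 324 of 16932 were called with no filter and 56 with only the 2 groups, instead of 359. Called were 372 with that pseudocount, 684 of 14957 with DESeq2 and 574 with no fold threshold. Without both libraries 513 were called, and 275 to 469 without single libraries. For ACS against IL-1ß it was 2 instead of 1 with no fold threshold, where 401 of all genes were called instead of 257. For PRP lysate against MSC-CM it was 1 instead of 3 with only the 2 groups, 4 with RLE, edgeR, DESeq2, no fold threshold or without both libraries, and 2 to 4 on leaving out single libraries. Of all genes, 167 were called with only the 2 groups, 299 with RLE and 307 of 13675 with edgeR, instead of 304. DESeq2 called 484 of 13972, and 491 were called with no fold threshold. Without both libraries 562 were called, and 171 to 398 without single libraries. For ACS against MSC-CM it was 3 instead of 2 with DESeq2 and with only the 2 groups. Of all genes, 292 of 13644 and 323 of 11628 were called there instead of 143. For PRP lysate against ACS it was 1 instead of 0 without both libraries, where 50 of all genes were called instead of 11. Of the 18 other pathway genes, DESeq2 called 3 instead of 1 for PRP lysate against MSC-CM and 2 instead of 1 for ACS against MSC-CM. It called 484 of 13972 and 292 of 13644 of all genes there, where limma called 304 and 143 of 11628. For PRP lysate against IL-1ß 1 was called instead of 0 without both libraries and 0 to 2 on leaving out single libraries. Of all genes, 513 and 275 to 469 were called there instead of 359. For ACS against IL-1ß it was 1 instead of 2 with no filter, 0 with only the 2 groups and 0 to 2 on leaving out single libraries. Of all genes, 207 of 16932, 48 and 103 to 705 were called in those settings, instead of 257. For PRP lysate against MSC-CM it was 0 with no filter or only the 2 groups, 2 with RLE, with TMM and without both libraries, and 0 to 1 on leaving out single libraries, as for ACS against MSC-CM. Of all genes, 265 of 16932 were called with no filter and 299 with TMM, the others being given above. For ACS against MSC-CM, 53 to 125 were called on leaving out single libraries. The cause of these changes was not tested.

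Replicate numbers are in the labels of 12 libraries, ACS excepted. The deviations of same-numbered libraries from their group means correlated at -0.775 to 0.635 (median 0.319, 11 of 18 pairs over 0.1), and 2 of 12 libraries correlated best with their own number. Libraries of other numbers had a median of -0.201, with 16 of 36 pairs over 0.1. The labels do not say what a number marks, and not every pair passed 0.1, so the samples were not treated as paired. The check also held IL-1ß and untreated libraries, whose numbers cannot mark an OT donor. It therefore cannot decide whether libraries of different OTs are matched by donor, and they may not be independent. With the replicate block, 1 member (F3) instead of 2 was called for PRP lysate against IL-1ß, with PLAU at a limma adjusted p of 0.146. Of all 11628 genes, 197 were then called instead of 359. The block left 2 members (F3 and TFPI) instead of 3 for PRP lysate against MSC-CM, with PLAU at a limma adjusted p of 0.0869, and 0 instead of 1 pathway gene. There it left 171 of all genes instead of 304. A fit of the same 12 libraries without the block, chosen after seeing the data, called 1 member and 1 pathway gene (TFPI2) for PRP lysate against IL-1ß and 3 members and 0 pathway genes for PRP lysate against MSC-CM. In these comparisons it called 277 and 238 of all genes.

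Directions turned only for log2 fold changes that were not called. TFPI was 0.011 for IL-1ß against untreated with DESeq2. Without both libraries, PROCR was -0.11 for IL-1ß against untreated, and 0.14, 0.28 and 0.32 for MSC-CM, PRP lysate and ACS against IL-1ß, PLAUR was 0.12 for MSC-CM against IL-1ß, ANXA2 -0.0019 for ACS against IL-1ß, and F3 0.27 for PRP lysate against ACS. ANXA2 for ACS against IL-1ß was also -0.12 with RLE, -0.10 with TMM, -0.10 with edgeR and -0.12 with DESeq2. PLAT was 0.059 with edgeR and 0.050 with DESeq2 for PRP lysate against IL-1ß, and 0.060 with RLE, 0.044 with TMM, 0.38 with edgeR and 0.42 with DESeq2 for PRP lysate against MSC-CM. On leaving out single libraries, other uncalled values spanned 0. For IL-1ß against untreated PROCR ranged from -0.11 to 0.48. For MSC-CM against IL-1ß, F3 ranged from -0.15 to 0.084, THBD from -0.83 to 0.17, PROCR from -0.45 to 0.14, PLAUR from -0.21 to 0.12 and PLAT from -0.32 to 0.069. For PRP lysate against IL-1ß, PROCR ranged from -0.29 to 0.30 and PLAT from -0.72 to 0.17. For ACS against IL-1ß, PROCR ranged from -0.27 to 0.32 and ANXA2 from -0.094 to 0.11. Against MSC-CM, PLAT ranged from -0.59 to 0.31 with PRP lysate and PROCR from -0.012 to 0.38 with ACS. For PRP lysate against ACS, F3 ranged from -0.46 to 0.27, THBD from -0.11 to 0.69 and PROCR from -0.23 to 0.17.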

Other observations

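SERPINB2 was looked for through its neighbours, a step chosen after the data were seen. In the RefSeq annotation of another horse assembly (TB-T2T) it lies between SERPINB7 and SERPINB10. Between those genes the deposited EquCab3.0 positions hold 1 unnamed gene, ENSECAG00000000774 (chr8:83681858-83693143), which had 3 reads in all 15 libraries together. Whether it is SERPINB2 was not established. SERPINB10, an intracellular serine protease inhibitor of myeloid cells, measured 1161 CPM on average in untreated macrophages, 853 with IL-1ß, 459 with MSC-CM, 1827 ± 1207 in PRP lysate and 794 in ACS macrophages. It was 1.73 higher on the log2 scale for PRP lysate than for MSC-CM and was not called (limma adjusted p = 0.123). PRP lysate library 1 measured 437 CPM against 2426 and 2617 CPM in the others of its group, and without it the difference was 2.57 and called (limma adjusted p = 0.00173). DESeq2 and edgeR also called it in all libraries (adjusted p = 0.000896 and 0.0459). SERPINB8, which inhibits furin, averaged 418, 286, 254, 378 and 357 CPM in the same order, and it differed from MSC-CM by 0.57 for PRP lysate (limma adjusted p = 0.0120) and by 0.49 for ACS (limma adjusted p = 0.0470), which passed the adjustment but lay under the 2-fold limit. The former did not pass it without MSC-CM library 1 (limma adjusted p = 0.0589), without PRP lysate library 2 (0.0568) or in the fit of the 2 groups alone (0.0881), among others, and the latter with RLE size factors (limma adjusted p = 0.0964) or with any 1 library of the 2 groups left out, among others.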
